A study of Mus musculus with 2 samples.

Results

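The large subunit of the cytosolic ribosome is built from ribosomal RNA and a fixed set of proteins, most of which are encoded by genes whose symbols begin with Rpl. Members were taken as the genes whose symbol is Rpl followed by a number, with an optional letter or l, together with Rplp0, Rplp1 and Rplp2, and pseudogenes marked -ps were left out. The rule found 50 of the 32285 genes in the table.

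Large subunit proteins are made in stoichiometric amounts, and their transcripts share an oligopyrimidine start that places their translation under common control. Erythroid precursors make ribosomes intensively while they divide and then lose both ribosomes and most transcripts other than those of hemoglobin as they mature to reticulocytes and red cells. Heterozygous loss of several of these genes causes Diamond-Blackfan anemia, an inherited failure of red cell production.

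Single-cell RNA sequencing measured femoral bone marrow from 1 control mouse, labelled WT, and 1 double knockout (DKO) mouse, both 2 months old. The DKO mouse carried VavCre, Ddx41 fl/fl and cGAS-/-, so that the RNA helicase gene Ddx41 was deleted where the Vav promoter drives Cre, in blood-forming cells and, as the study states, also in endothelial cells, and by its label lacked both working copies of the DNA sensor gene cGas. The study's controls for this cross were Ddx41 fl/fl animals with wild-type cGas and no VavCre, so that effects of the 2 deletions cannot be told apart, and with 1 mouse and 1 library per genotype neither can genotype, animal and library. No test between genotypes was possible, and the intervals given are exact 95% intervals that cover counting error only.

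After filters the control library held 18663 cells with 118970616 unique molecular identifiers (UMIs, counted transcript molecules) and a median of 4879 UMIs per cell. The DKO library held 13729 cells with 114830668 UMIs and a median of 6904. The 2 libraries shared 81 cell barcodes. Over all cells, Ddx41 stood at 20.3 counts per 1000000 UMIs (CPM; 19.5 to 21.1) in control cells and 8.003 CPM (7.49 to 8.54) in DKO cells, and Cgas at 13.6 and 7.25 CPM. Both were therefore lower in the DKO library, and neither was absent from it. Cells were grouped into 11 non-erythroid classes by fixed markers, each name below meaning cells like that type by those markers, and erythroid cells were split into 5 stages by the share of their UMIs that came from hemoglobin genes.

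The first bases of these genes are shown for members that later stood apart, 3 with among the lowest DKO to control ratios in late erythroid cells (Rpl14, Rpl15 and Rpl18) and 3 with among the highest (Rplp2, Rpl38 and Rpl41). Each sequence runs from 40 bases before to 30 bases after the start site annotated by RefSeq on GRCm38.p6, 5′ to 3′ on the gene's own strand. Capitals mark the longest run of C and T that touches the start region. The windows lie at chr9:120571477-120571546 on the plus strand for Rpl14, chr14:18270957-18271026 on the minus strand for Rpl15, chr7:45718031-45718100 on the plus strand for Rpl18, chr7:141447611-141447680 on the plus strand for Rplp2, chr11:114668540-114668609 on the plus strand for Rpl38 and chr10:128549139-128549208 on the minus strand for Rpl41.
Rpl14: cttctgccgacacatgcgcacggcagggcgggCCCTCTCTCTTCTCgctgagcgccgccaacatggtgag
Rpl15: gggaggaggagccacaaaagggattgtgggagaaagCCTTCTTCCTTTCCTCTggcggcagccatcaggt
Rpl18: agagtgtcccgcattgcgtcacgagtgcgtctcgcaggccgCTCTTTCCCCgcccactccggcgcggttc
Rplp2: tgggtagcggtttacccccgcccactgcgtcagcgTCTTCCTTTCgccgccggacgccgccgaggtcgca
Rpl38: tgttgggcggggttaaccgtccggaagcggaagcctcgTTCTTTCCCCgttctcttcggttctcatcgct
Rpl41: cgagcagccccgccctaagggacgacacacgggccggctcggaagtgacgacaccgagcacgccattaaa

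The run is 14 bases long in Rpl14, 17 in Rpl15 and 10 in each of Rpl18, Rplp2 and Rpl38, and no run of 5 or more bases touched the start in Rpl41. Among these 6, which were chosen by their ratio, both runs over 10 bases belonged to low-ratio members, and a run of 10 occurred on either side. Other members did not keep this split. Rplp0 and Rpl5, among the 5 lowest ratios at 75 to 90% hemoglobin, had runs of 7 and 3. Rpl37, among the 5 highest there, had a run of 11, and Rpl34, also among them, runs of 13 and 6 at different promoters.

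RefSeq promoters were matched for 35 of the 47 members that were expressed. A member was counted when any of its promoters held a feature, whereas promoters of all genes were counted singly, so that members with several promoters had more chances. A run of at least 8 C or T bases touching the window from 10 bases before to 40 after the start was present in 25 of the 35 (71.4%), against 17.4% of 32851 mouse promoters. The letters CTTTCC on the gene strand occurred within 50 bases of the start in 16 of 35 (45.7%), against 4.69% of all promoters, and the longer CTCTTTCC, which contains them, in 7 of 35 (20%), against 0.447%. Both overlap the run of C and T. The letters CCGGAAG, a common ETS family element, were found on either strand in 9 of 35 (25.7%), against 5.21% of all promoters. By contrast TATAAA was found in 2 of 35 (5.71%) against 4.94%, and CCAAT in 5 of 35 (14.3%) against 13.6%. Such matches describe letters and not bound sites.

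Among the members, 47 reached 20 CPM in at least 1 library in most cell groups and 3 did not. Across all cells the most abundant was Rpl13 (chr8:123102350, plus strand), at 2764 CPM in control cells and 1865 CPM in DKO cells. The least abundant were the paralogs known from other tissues. Rpl3l, a heart and skeletal muscle paralog of Rpl3, stood at 1.25 CPM in control cells and 1.27 CPM in DKO cells. Rpl39l, best known from the testis, had 55 and 35 UMIs, and Rpl10l, a testis paralog of Rpl10, had 2 and 1 UMIs. In marrow, then, the pool was made almost wholly of the general genes. Each UMI stands for 1 molecule caught at its 3′ end, so counts of different genes were not divided by transcript length.

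Rpl transcripts took very different shares of the transcriptome in different cells. In the control library they made up 12.2% of all UMIs in progenitors, 12.7% in T or NK cells, 11.9% in basophils or mast cells, 10.0% in B cells, 9.73% in dendritic cells and 8.18% in monocytes. Lower shares were found in plasma cells (5.12%), megakaryocytes (3.603%), macrophages (2.92%), stromal or endothelial cells (2.63%) and neutrophils (2.01%). Progenitors, T or NK cells and basophils or mast cells therefore stood high, and neutrophils low. Hemoglobin UMIs were 58.9% of the total in cells of the macrophage class and 37.3% in the stromal or endothelial class of the control library. Without hemoglobin the Rpl share rose to 7.102% in the macrophage and 4.19% in the stromal or endothelial class. The order of the classes in the DKO library was similar, from 12.5% in progenitors to 1.78% in neutrophils.

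**Figure D1:**
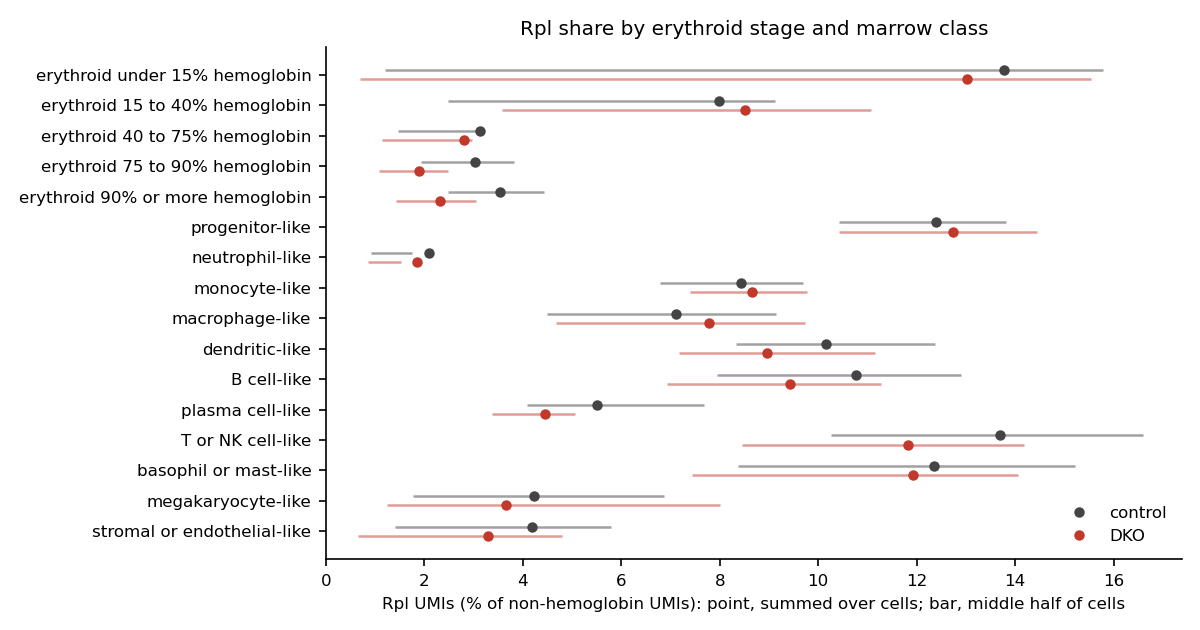
Rpl UMIs as percent of UMIs other than hemoglobin in each erythroid stage and non-erythroid class, where points are the value summed over cells of the control (gray) or DKO (red) library and bars span the middle 50% of single cells. Control points run from 13.8% in erythroid cells under 15% hemoglobin to 2.09% in neutrophil-like cells, and the points of both libraries lie close together in most classes.

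Within the erythroid lineage the share fell steeply as hemoglobin accumulated. In the control library Rpl genes took 13.2% of all UMIs in cells with under 15% hemoglobin, 5.71% at 15 to 40%, 1.29% at 40 to 75%, 0.426% at 75 to 90% and 0.296% at 90% or more. The DKO library gave 12.5%, 6.07%, 1.18%, 0.286% and 0.172%. Both libraries thus lost most of their Rpl share along maturation, and the DKO library ended lower. Part of this fall is arithmetic, because hemoglobin fills the denominator. Per UMI other than hemoglobin, the control values were 13.8%, 7.98%, 3.12%, 3.03% and 3.53%, and the DKO values were 13.01%, 8.50%, 2.81%, 1.89% and 2.32%. On that scale the control library stayed level from 40% hemoglobin onward, whereas the DKO library went on falling to the 75 to 90% stage.

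The DKO to control ratio of the summed Rpl genes, given as log2, was small over the cells of each of the first 3 stages and lower in the last 2. Per UMI it was -0.07 (-0.08 to -0.07) under 15%, 0.09 (0.08 to 0.10) at 15 to 40% and -0.13 (-0.14 to -0.12) at 40 to 75% hemoglobin. It was -0.57 (-0.59 to -0.56) at 75 to 90% and -0.78 (-0.81 to -0.76) at 90% or more. Per UMI other than hemoglobin the last 2 values were -0.68 and -0.60. The late stages were therefore lower on both scales, by more than in any earlier stage.

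The direction depends on what the counts are set against. Late DKO cells held more UMIs in total than late control cells, a mean of 8424 against 5513 at 75 to 90% and 8106 against 5239 at 90% or more. Each held nearly the same number of Rpl UMIs, with means of 24.1 in the DKO and 23.5 in the control library at 75 to 90%, and 13.9 and 15.5 at 90% or more. Counted per cell the log2 ratio was 0.64, 0.54 and 0.56 in the first 3 stages, 0.04 at 75 to 90% and -0.15 at 90% or more. The late stages were thus lower than the early ones on the per-cell scale too, but above 0 or near it. Hemoglobin UMIs per cell were 1.51-fold and 1.56-fold higher in the DKO library in the last 2 stages, and all other UMIs 1.65-fold and 1.36-fold higher, so that Rpl transcripts did not share in the higher count.

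Finer bins of hemoglobin share gave the same picture. In steps of 2.5 points, the Rpl share was lower in the DKO library in 9 of 9 bins from 75% upward, with and without hemoglobin in the denominator. Below 75% it was lower in 20 of 30 bins per UMI and in 19 of 30 per UMI other than hemoglobin. Weighting control cells to the hemoglobin shares of the DKO cells gave -0.71 at 90% or more.

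**Figure D2:**
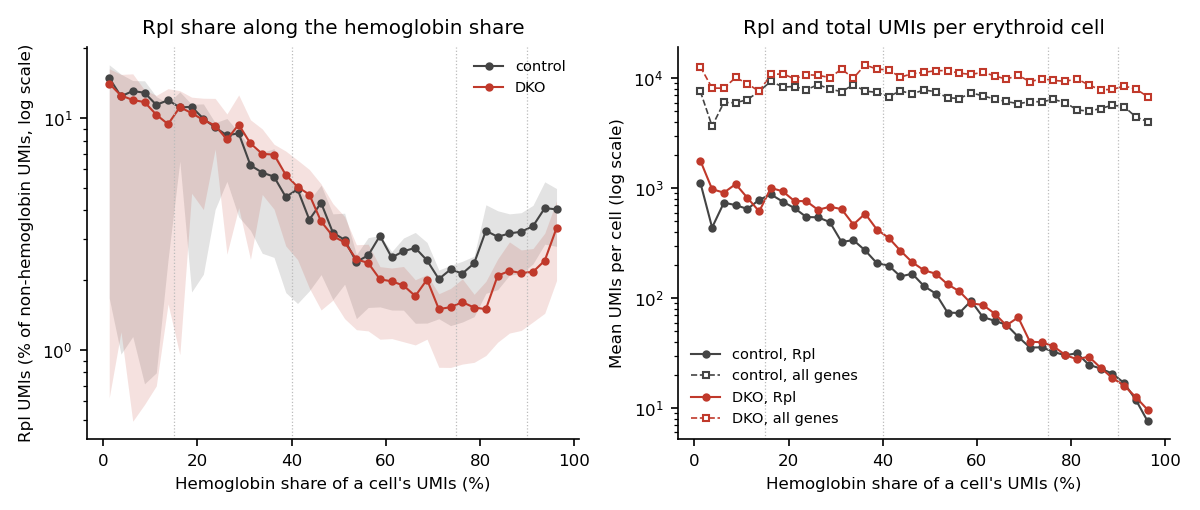
Left, Rpl share of UMIs other than hemoglobin (percent, log axis) against the hemoglobin share of a cell's UMIs in bins of 2.5 points, with shading over the middle 50% of cells and dotted lines at the stage limits; the DKO points lie below the control points in 9 of 9 bins from 75% upward. Right, mean UMIs per erythroid cell (log axis) for Rpl genes and for all genes, where the Rpl lines of both libraries meet at high hemoglobin and the DKO line for all genes stays above the control line.

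Each stage mixed cell clusters in different proportions. At 75 to 90% hemoglobin, cluster 4 held 52.1% of control cells and 24.7% of DKO cells, and cluster 3 held 37.0% and 47.4%. Within each the ratio was close to that of the whole stage, -0.55 in cluster 4 and -0.63 in cluster 3. At 90% or more it was -0.77 and -0.78. Clusters of the earlier stages departed further from the stage value. At 40 to 75% the 3 main clusters gave -0.25, -0.30 and -0.60 where the stage gave -0.13, the last of them, cluster 25, past 1.5-fold. At 15 to 40% cluster 12 gave 0.01 and cluster 15 gave 0.30, and under 15% clusters 12, 13 and 25 gave 0.07, -0.09 and -1.07, the last with 153 control and 57 DKO cells. The small summed ratios of the first 3 stages were therefore not shared by every cluster in them. Cluster 25 was named late erythroid by its markers and held 67.6% hemoglobin over all its cells, so that the under 15% stage was not made of early cells alone. That stage was also mixed in its Rpl share. There, 363 of 996 control cells (36.4%, 33.5 to 39.5) and 255 of 712 DKO cells (35.8%, 32.3 to 39.5) had under 4% Rpl among UMIs other than hemoglobin, against 15.1% and 14.0% in the pooled remaining cells. In the low-Rpl cells Malat1, a nuclear noncoding RNA, took 1.99% and 1.44% of those UMIs, against 0.17% and 0.19% in the others.

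RNA free in the suspension adds Rpl UMIs to every droplet. In control droplets with at most 100 UMIs, Rpl genes made up 4.79% of UMIs. If every neutrophil marker UMI in an erythroid cell is read as free RNA, that source could give at most 33.9% of Rpl UMIs in control cells and 22.7% in DKO cells at 75 to 90%, and 40.7% and 28.9% at 90% or more. The 11 neutrophil markers were all detected there and summed to 783 CPM in control cells and 323 CPM in DKO cells at 90% or more, and to 941 and 422 CPM at 75 to 90%. The other 10 marker lists of non-erythroid cells summed to between 1.34 and 82.4 CPM in those stages, with between 0 and 4 markers of a list undetected. After subtraction at these limits the summed ratio was -0.37 at 75 to 90% and -0.54 at 90% or more. The ratio was therefore smaller in size and still below 0 in both stages. The same droplet profile, from the control library, was used for both, and the DKO library's own was not analysed here.

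Member by member, the late stages moved broadly. A member was counted as lower when it was at least 1.5-fold lower in the DKO library, among genes with at least 20 CPM in either. In the first 3 stages 0 of 47 members were lower, where 2.88%, 3.93% and 6.85% of all tested genes were. No test stands behind these counts, since they compare 1 library with 1 library. At 75 to 90% hemoglobin 29 of 45 members (64.4%) were lower, against 16.2% of all genes, with a median log2 ratio of -0.64 where all genes had 0.36. At 90% or more 36 of 42 (85.7%) were lower, against 34% of all genes, with a median of -0.96 where all genes had -0.27. Several of the 42 reached 20 CPM in the control library alone, such as Rpl3 (22.0 CPM in control and 10.4 CPM in DKO cells) and Rpl22 (20.6 and 9.40 CPM). Genes near the minimum that pass in this way are more likely to be counted as lower, whether members or not. Per UMI other than hemoglobin 39 of 47 (83.0%) were lower at 75 to 90%, against 31.5% of genes. At 90% or more 39 of 47 were lower as well, but there 58.8% of all genes were, and the members' median of -0.78 lay beside an all-gene median of -0.79. On that last scale the Rpl genes were therefore not set apart from other transcripts of the most mature cells by their median. The only member at least 1.5-fold higher in any stage was Rpl38 at 15 to 40% (0.66), where 2.87% of all genes were higher.

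**Figure D3:**
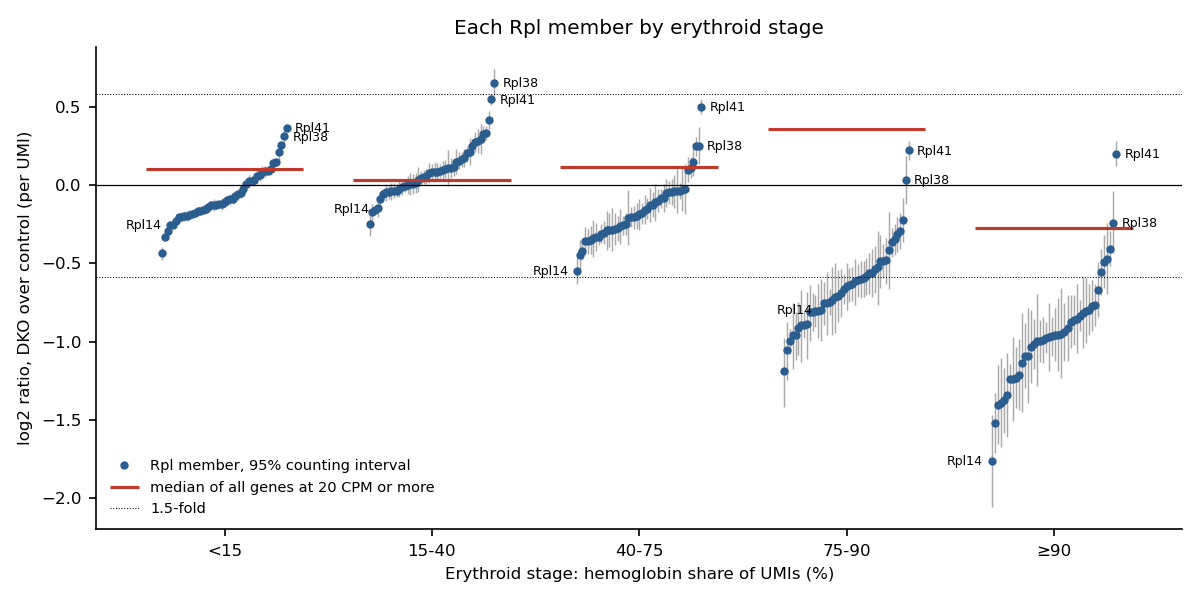
Log2 ratio of DKO over control per UMI for each member of at least 20 CPM, ordered within each of the 5 erythroid stages, with gray bars for the 95% counting interval, red lines for the median of all tested genes and dotted lines at 1.5-fold. Members center near 0 in the first 3 stages and at -0.64 and -0.96 in the last 2, where the all-gene medians are 0.36 and -0.27.

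Rpl5 and Rpl11 bind the 5S ribosomal RNA and, when free of ribosomes, the p53 regulator Mdm2. Rpl5 stood at 40.6 CPM (37.8 to 43.5) in control cells and 20.8 CPM (18.3 to 23.6) in DKO cells at 75 to 90%. At 90% or more it stood at 23.0 and 11.6 CPM, a log2 ratio of -0.99 (-1.28 to -0.70). Rpl11 stood at 66.5 and 41.3 CPM at 75 to 90%, and at 40.7 and 20.8 CPM at 90% or more, with ratios of -0.69 and -0.97. As counted, both were therefore lower in both late stages. Free RNA, at the limit given above, could supply much of these counts. For Rpl5 at 90% or more that limit was 83.1% of control and 68.2% of DKO UMIs. For Rpl11 it was 70.3% and 56.8%. Whether either gene stays lower without free RNA was not tested.

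The stalk of the large subunit recruits translation factors through Rplp0, Rplp1 and Rplp2, and Rpl12 lies at its base. Rplp0, the anchor of the stalk, stood at 288 CPM (280 to 295) in control cells and 144 CPM (137 to 151) in DKO cells at 75 to 90%, and at 223 and 94.3 CPM at 90% or more, with ratios of -0.996 and -1.24. Rplp1 stood at 226 and 122 CPM, then at 185 and 94.2 CPM. Rplp2, which pairs with Rplp1 in the stalk, stood at 163 and 126 CPM, then at 131 and 98.5 CPM. Of the 4 stalk genes, 3 were at least 1.5-fold lower in each late stage, where 16.2% and 34% of all tested genes were. Among all members tested 29 of 45 and 36 of 42 were. The exception was Rplp2, at -0.37 (-0.46 to -0.28) and -0.41 (-0.52 to -0.29), although its partner Rplp1 was at -0.89 and -0.97.

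Proteins that line the exit tunnel or its rim were counted as a further group. At 75 to 90%, 5 of 9 with enough counts were at least 1.5-fold lower, against 16.2% of all genes and 64.4% of all members tested, and at 90% or more 6 of 8 were, against 34% and 85.7%. Rpl35, at the tunnel rim, stood at 38.8 and 20.9 CPM and then at 29.1 and 12.3 CPM, the lowest ratio of the group at 90% or more (-1.24). Rpl23a, its neighbor at the rim, stood at 63.6 and 43.1 CPM, then at 33.4 and 24.1 CPM (-0.47). Rpl38 was nearly equal in both libraries, at 47.9 and 49.1 CPM and then at 40.6 and 34.4 CPM, a ratio of -0.24 (-0.43 to -0.04). The group thus held both a strongly lower member and one with little change.

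Genes mutated in Diamond-Blackfan anemia were nearly all lower. Of those with enough counts, 8 of 9 were at least 1.5-fold lower at 75 to 90%, against 16.2% of all genes, and 9 of 9 at 90% or more, against 34%. Among all members tested 29 of 45 and 36 of 42 were lower, so that most members shared this. Rpl15 stood at 54.3 CPM (51.0 to 57.7) in control cells and 26.1 CPM (23.2 to 29.2) in DKO cells at 75 to 90%, and at 34.5 and 13.03 CPM at 90% or more, with ratios of -1.06 and -1.40. Rpl18 stood at 41.6 and 18.2 CPM, then at 27.5 and 10.5 CPM, with ratios of -1.19 and -1.39. Rpl9 stood at 83.7 and 49.5 CPM, then at 50.2 and 19.4 CPM. Rpl35a stood at 82.3 and 55.7 CPM at 75 to 90%, just above the limit at -0.56, and at 55.2 and 28.8 CPM at 90% or more (-0.94). Of the 5 members whose proteins the study blotted, 4 of 5 were lower at 75 to 90% and 5 of 5 at 90% or more, beside the same shares of all genes and of all members. Rpl7a gave the exception, with a ratio of -0.48 and then -0.82.

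The lowest ratio at 90% or more belonged to Rpl14, a protein of the subunit's solvent side, at 29.3 CPM (25.5 to 33.6) in control cells and 8.64 CPM (7.43 to 10.0) in DKO cells, a ratio of -1.76 (-2.06 to -1.47). Rpl32 followed with 61.5 and 21.4 CPM (-1.52). The same genes stood at -0.80 and -0.96 in the stage before. At the free RNA limit given above, most UMIs of Rpl14 and Rpl32 at 90% or more could come from that source. For Rpl32 the limit was 66.9% in control and 79.1% in DKO cells. Above Rpl38 at the other end lay Rpl41, and below it Rplp2, Rpl23a and Rpl21 (-0.49). At 75 to 90% Rpl37 (-0.22), Rpl21 (-0.29) and Rpl34 (-0.31) were the next highest after Rpl41 and Rpl38. The intervals of the lowest and the highest members did not overlap in either stage. These members were picked as the extremes of the same values, and the intervals cover counting error only, so that this is no test of a spread.

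Rpl41 encodes the smallest ribosomal protein, and its whole coding sequence, from the GENCODE M21 transcript on GRCm38, is printed with its start and stop codons in capitals because the gene stood apart in each erythroid comparison. It comprises 78 bases or 26 codons with the stop, within a transcript of 582 bases on chromosome 10.
Rpl41: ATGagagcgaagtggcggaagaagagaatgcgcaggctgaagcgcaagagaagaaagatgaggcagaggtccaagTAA

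Rpl41 was the only member above 0 at 90% or more, at 238 CPM (227 to 250) in control cells and 274 CPM (267 to 282) in DKO cells, a ratio of 0.20. It stood at 281 and 329 CPM (0.22) at 75 to 90%. These values depend on a second gene. Of the 50-base words in the last 300 bases of Rpl41, 62.9% also occur in transcripts of 1 other gene, Gm10076, and reads of the 2 genes may not be separable. Gm10076 held 20.3% of their joint UMIs in control cells and 7.098% in DKO cells at 90% or more, and its share lay between 17.4% and 21.3% in the control and between 5.90% and 8.37% in the DKO library over all 16 cell groups. Counted together, the 2 genes stood at 299 and 295 CPM at 90% or more (-0.02) and at 351 and 353 CPM at 75 to 90% (0.01). The joint level was therefore nearly equal in both libraries and not higher in the DKO, and it was still above the median of the other members. Why the 2 libraries split these reads differently was not tested.

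Shared 3′ sequence is common among these genes. Over 50% of such words occurred in another gene's transcript for 26 of 47 members, and none did for 14. Rpl13, Rpl15, Rpl18 and Rpl38 were among the 26, so that their counts are uncertain, and Rpl5, Rpl11, Rpl14 and Rplp0 were among the 14. Summed over the members with none, the 3 scarce paralogs included, the ratio was -0.70 at 75 to 90% and -1.01 at 90% or more. Members with unique ends were thus lower by at least as much as the whole set.

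As a share of the Rpl pool, which no scaling to other genes can change, the members also shifted along maturation. From the under 15% to the 90% or more stage, Rpl41 rose from 2.85% to 8.07% of Rpl UMIs in the control and from 3.86% to 15.98% in the DKO library. Counted with Gm10076 it rose from 3.49% to 9.92% and from 4.12% to 16.99%. Rplp0 rose from 4.05% to 7.54% in the control and from 3.74% to 5.49% in the DKO library, and Rplp2 from 2.01% to 4.42% and from 2.53% to 5.74%. Rpl13 went from 4.80% to 6.24% in the control. In the opposite direction Rpl14 went from 2.75% to 0.99% in the control and from 2.42% to 0.50% in the DKO library. Rpl32 went from 3.49% to 2.08% in the control and from 3.19% to 1.25% in the DKO library, and Rpl15, Rpl3 and Rpl18 also took smaller shares. The other stalk genes differed, with Rplp1 going from 5.15% to 6.27% in control cells and from 6.01% to 5.49% in DKO cells, and Rpl12 from 2.27% to 1.29% and from 2.40% to 1.23%. The last erythroid cells thus carried a pool with more Rpl41, Rplp0 and Rplp2 in both libraries. Free RNA in the control held 2.95% Rpl41, 3.21% Rplp0 and 2.02% Rpl14 of its Rpl UMIs, close to early cells and unlike late ones.

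**Figure D4:**
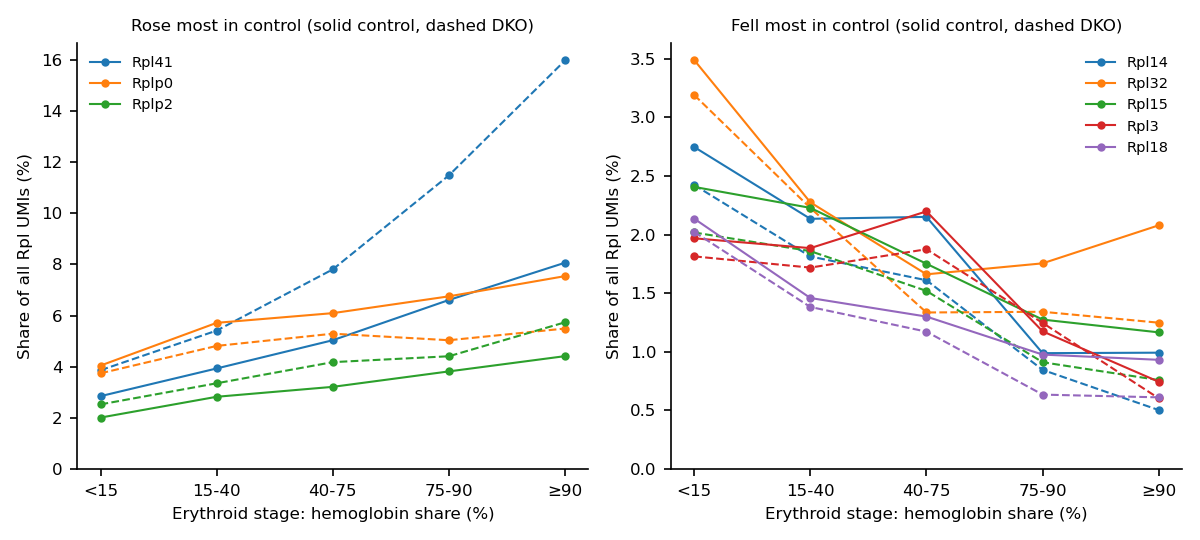
Percent of the summed Rpl UMIs taken by the 3 members with the greatest rise (left) and the 5 with the greatest fall (right) in the control library, over the 5 erythroid stages by hemoglobin share, with solid lines for control and dashed lines for DKO cells. Rpl41 climbs to 8.07% in control cells and 15.98% in DKO cells while Rpl14 goes to 0.99% and 0.50%.

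Outside the erythroid lineage the summed log2 ratio lay between -0.23 and 0.07. Per UMI it was 0.07 in macrophages, 0.05 in monocytes, 0.03 in progenitors and 0.01 in stromal or endothelial cells. It was -0.04 in basophils or mast cells, -0.07 in megakaryocytes, -0.17 in neutrophils and in dendritic cells, -0.19 in B cells, -0.22 in plasma cells and -0.23 in T or NK cells. B, plasma and T or NK cells thus gave the lowest values, all smaller in size than the 2 late erythroid stages. Without hemoglobin the stromal or endothelial value was -0.35, because 37.3% of control and 19.4% of DKO UMIs there were hemoglobin. Few members passed the 1.5-fold limit. In neutrophils 1 member, Rpl15, was lower, where 1.9% of all genes were, and in plasma cells, with 64 and 53 cells, 1 member, Rpl23a, was lower, where 32.6% were. In the other 9 classes 0 members were lower, against 1.44% of all genes in progenitors, 2.15% in monocytes, 15.1% in macrophages, 4.46% in dendritic cells, 1.68% in B cells, 6.32% in T or NK cells, 2.7% in basophils or mast cells, 13.9% in megakaryocytes and 5.17% in stromal or endothelial cells. Per UMI other than hemoglobin more members passed in 3 classes, with 8 of 47 lower in stromal or endothelial cells, where 13.7% of all genes were, 3 of 47 in megakaryocytes, where 18.4% were, and 4 of 47 in plasma cells, where 37.2% were. Cells of the DKO library also held more UMIs in most classes, and per cell the median class stood at 0.41. Over all cells together the ratio was -0.39, a value that mixes classes in different proportions.

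The share of the pool taken by individual members also differed between classes. Over the 11 non-erythroid classes of the control library, the highest share of the pool was a median of 1.45-fold above the lowest for the 47 members. Rpl31, at the exit tunnel rim, ranged most, from 0.40% of Rpl UMIs in T or NK cells to 1.39% in dendritic cells. Rpl36al, a copy of Rpl36a, ranged from 0.51% in T or NK cells to 1.81% in plasma cells. In both cases the same classes were lowest and highest in the DKO library. Rpl12 ranged from 1.25% in neutrophils to 3.28% in T or NK cells, Rpl41 from 1.57% in T or NK cells to 3.93% in megakaryocytes, and Rplp1 from 2.88% in neutrophils to 6.46% in macrophages. The composition of the pool was much alike in both libraries, with Pearson's r of the log2 shares between 0.92 and 0.98 in the 16 groups, as a description across 47 members that share cells.

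Some members stood on the same side of the summed ratio everywhere. Across 5 stages and 11 classes, all taken from the same 2 libraries, 5 members lay above the summed ratio in 16 of 16 groups, namely Rpl41, Rpl38, Rplp2, Rpl37a and Rpl36a. Counted with Gm10076, Rpl41 lay above in 15 of 16, and in neutrophils its joint ratio of -0.20 was below the summed ratio of -0.17. Another 7 lay below it in 16 of 16, namely Rpl35, Rpl15, Rplp0, Rpl13, Rpl9, Rpl11 and Rpl18. The median difference from the summed ratio was 0.39 for Rpl38 and -0.33 for Rpl35 on the log2 scale. These offsets were therefore not particular to erythroid cells.

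That offset went with transcript length. The ratio fell with the median length of a member's annotated transcripts in 16 of 16 groups, with Pearson's r to the log2 length between -0.56 and -0.22 across the 47 members. In progenitors r was -0.47, and the 12 shortest had a median ratio of 0.21 and the 12 longest of 0.00. In the under 15% stage the 12 shortest had a median ratio of 0.09 and the 12 longest of -0.14, and at 90% or more these were -0.63 and -0.98. Without Rpl41 the r at those stages was -0.47 and -0.37, against -0.49 and -0.39 with it. The members share depth and library, and the part of library preparation in this relation was not tested.

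**Figure D5:**
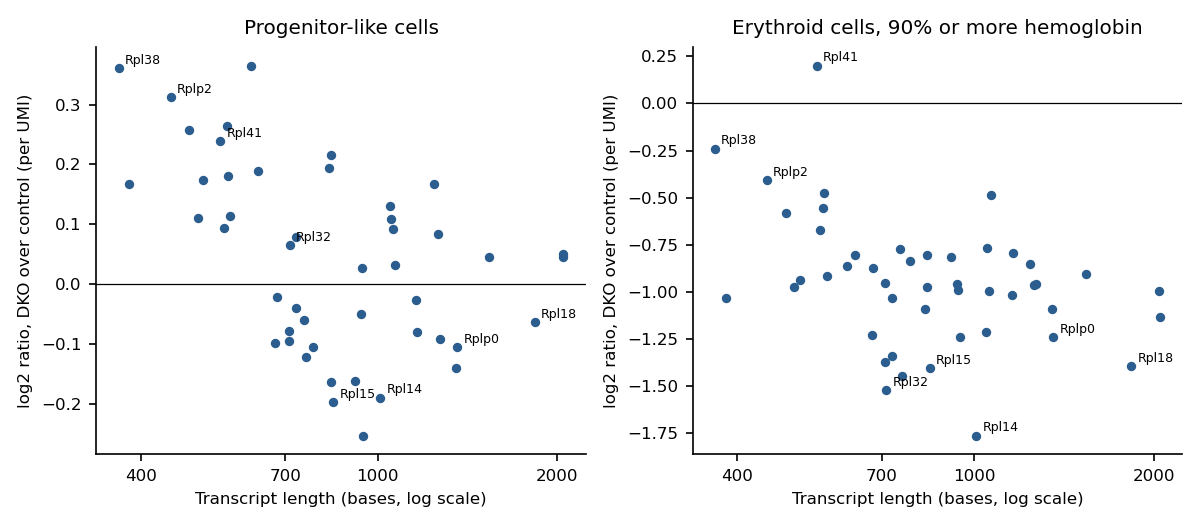
Log2 ratio of DKO over control per UMI against transcript length (bases, log axis) for each member except Rpl3l, Rpl10l and Rpl39l, with no minimum level, in progenitor-like cells (left) and in erythroid cells with 90% or more hemoglobin (right). Shorter transcripts tend to lie higher in both, with Pearson's r of -0.47 on the left and -0.39 on the right across 47 members.

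Several lists of related genes outside the rule were described the same way. Small subunit genes had medians of -0.03, 0.14 and -0.05 in the first 3 stages. At 75 to 90% their median was -0.79 with 23 of 30 lower, where all genes had 0.36 and 16.2%, and at 90% or more it was -1.13 with 29 of 30 lower, where all genes had -0.27 and 34%. Per UMI other than hemoglobin their median at 90% or more was -0.95, beside -0.79 over all genes, of which 58.8% were lower. Genes of both subunits were thus lower late. Of 30 assembly factors for the large subunit, 29 had enough counts in the under 15% stage, with a median of 0.24. Of these 29, 0 were lower, where 2.88% of all tested genes were. In the last 2 stages 0 of the 30 had enough counts. Mitochondrial large subunit genes above the minimum likewise dwindled, from 49 in the first stage to 1 at 75 to 90%.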

How the data were processed

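The deposited values were raw UMI counts per gene and barcode, made by the authors with Cell Ranger (version 7.1.0 in the file headers) on mm10 from 10x Chromium 3′ v3 libraries. The control matrix held 1518290 barcodes, from which cells were called by a test against droplets with at most 100 UMIs (false discovery rate 0.01, at least 500 UMIs). The DKO matrix was deposited with 14142 barcodes, already filtered, and was used as it came. Barcodes over 20% mitochondrial UMIs (171 control, 215 DKO) and called doublets (363 and 198) were removed. Cells were clustered with scanpy 1.11.5 (30 components, 15 neighbors, Leiden resolution 1, 27 clusters) and named from fixed markers.

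UMIs were summed per library and group over all genes, and ratios of the DKO to the control library were expressed as log2, after adding 1 to each count. Genes with at least 20 CPM in either library were compared, and 1.5-fold was the limit. Intervals were exact Poisson, binomial or conditional binomial. The ratio script recovered known changes on simulated counts. Named genes were the functional groups, the 5 lowest and 5 highest ratios in each late stage, the 5 greatest rises and falls of pool share in the control, the 5 widest ranges over classes, and the most and least abundant members. Members and lists were chosen with earlier results of these data known. Transcript lengths came from GENCODE M21 and promoters from RefSeq. Some genes that the rules name are not reported here.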

Additional observations from a re-analysis of the deposited data

Results flagged for a closer look

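The summed Rpl log2 ratio was above 0 in the erythroid stage with 15 to 40% hemoglobin (0.0873) and below 0 in the other 4 stages, which drew attention to it. The difference between the stages was not tested, since each genotype has 1 library. Control droplets with at most 100 UMIs, which no comparison of the report uses as cells, held Rpl transcripts as 4.79% of their UMIs, above the limit that a count of 0 allows.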

How the results depend on the processing

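No paired analysis was possible because each genotype has 1 library, and for the same reason no replicate could be left out. The values below are summed log2 ratios in the order of rising hemoglobin, and each is a change from the reported value beyond counting error whose cause was not tested. Without hemoglobin UMIs the ratio was -0.081 under 15%, -0.16 at 40 to 75%, -0.68 at 75 to 90% and -0.60 at 90% or more, and the non-erythroid median was -0.18. With a simpler barcode threshold it was -0.10, 0.052 and -0.20 in the first 3 stages and -0.75 in the last, and the median was -0.11. A mitochondrial limit of 10% gave -0.079 in the first stage. With doublets kept the first 3 stages gave -0.046, 0.046 and -0.14. Cells with 2000 to 20000 UMIs gave -0.41, -0.076 and -0.21 in the first 3 stages and a median of -0.21. With control cells weighted to the DKO hemoglobin shares, the 15 to 40% stage gave 0.034, the 40 to 75% stage -0.16 and the last -0.71, and the median was -0.19. Erythroid cells taken by hemoglobin share alone gave -0.091, 0.095 and -0.14 in the first 3 stages, a choice that does not apply to the median. Subtracting 5% free RNA gave -0.16 at 40 to 75% and -1.99 at 75 to 90%, and no value at 90% or more, where it left DKO Rpl counts below 0.

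The next alternatives were chosen after seeing the data. Free RNA scaled by neutrophil markers gave -0.12 under 15%, -0.071 at 40 to 75%, -0.37 at 75 to 90% and -0.54 at 90% or more. At 75 to 90% cluster 3 alone gave -0.63 and cluster 4 alone -0.55. UMIs per cell gave 0.64, 0.54, 0.56, 0.038 and -0.15, and a median of 0.41, so that the direction turned in 3 stages and in the median. Without Rpl41 the stages gave -0.089, 0.065, -0.17, -0.65 and -0.91. Rpl41 counted with Gm10076 gave -0.080 in the first stage. Members without shared 3′ sequence gave -0.11, 0.011, -0.22, -0.70 and -1.01, and a median of -0.13. With no minimum level, 2 members instead of 0 were at least 1.5-fold lower under 15% and 2 at 40 to 75%. The counts at 75 to 90% ran from 29 to 39 and at 90% or more from 36 to 43. The 75 to 90% ratio was below 0 under 15 of 16 alternatives and the 90% or more ratio under 15 of 15. Depth limits the late stages, with about 15 Rpl UMIs per cell at 90% or more.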

Other observations

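Both unnamed clusters were left out of the classes. In cluster 9, with 854 control and 888 DKO cells, Rpl genes took 1.34% of UMIs other than hemoglobin (1.32 to 1.35) in control cells and 1.29% (1.28 to 1.31) in DKO cells. In cluster 22, with 378 and 199 cells, they took 8.33% (8.29 to 8.37) and 8.002% (7.96 to 8.05).

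Ubb, a polyubiquitin gene, stood at 2092 CPM in control cells and 1030 CPM in DKO cells over all cells, a log2 ratio of -1.02. Fau, which encodes a small subunit protein fused to a ubiquitin-like protein, had ratios of -0.14 under 15% and -0.98 at 90% or more hemoglobin.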
